A study of Mus musculus with 6 samples.

Results

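Odorant and pheromone receptor genes form long gene clusters that blood cells do not use, and they served here as a background of closed chromatin. The peaks described are those whose nearest transcription start site belongs to an Olfr, Vmn1r or Vmn2r gene, chosen by symbol from the annotation deposited with the peaks and not by their values. There were 327 such peaks among 109859 in all (0.298%), and they named 177 receptor genes of the 1787 in the RefSeq gene table of mouse assembly GRCm38.p6 (9.9%). The assay was ATAC-seq, where a transposase (Tn5) cuts accessible DNA and tags it for sequencing. It was run on lineage-negative bone marrow cells, the fraction left once mature blood cells are removed and rich in stem and progenitor cells. Libraries came from 3 Mel18 knockout mice (KO), conditional for the hematopoietic system, and 3 wild-type mice (WT). Mel18, encoded by Pcgf2, is a subunit of the Polycomb repressive complex PRC1. The sources used here give neither the driver of the deletion, the age or sex of the mice, nor any treatment or the alleles of WT mice.

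Each olfactory sensory neuron expresses a single odorant receptor gene from 1 of its alleles, and all other receptor genes stay silent in heterochromatin. In the nose, receptor genes are turned on with the help of enhancers bound by the transcription factors Lhx2 and Ebf and the cofactor Ldb1. Vmn1r and Vmn2r genes encode the pheromone receptors of the vomeronasal organ, which signal through other G proteins than odorant receptors do.

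The libraries held 14487908 to 16709921 peak reads in KO and 12000808 to 13769335 in WT. Of these, 21721 to 26482 reads in KO and 16737 to 20055 in WT fell in receptor peaks, with a median per receptor peak of 47 to 53 reads in KO and 31 to 38 in WT. WT library 3 stood apart, differing from the other WT libraries by a chi-square per degree of freedom of 8.19 and 9.1, against 2.26 to 3.72 for every other pair within a group. Results that change without it are given both ways. The labelled cell type was matched by promoter peaks at all 8 stem and progenitor markers examined (Kit, Cd34, Flt3, Gata2, Runx1, Myb, Hlf and Meis1). Markers of mature cells were not all closed, with promoter peaks at 3 of 4 B cell genes, 3 of 4 granulocyte and macrophage genes, 2 of 4 erythroid genes and 1 of 4 T cell genes. Among 4 olfactory neuron markers, Omp (olfactory marker protein) and Gnal (the G protein of odorant signalling) had no promoter peak, Cnga2 (a subunit of the odorant-gated channel) was the nearest gene of 0 peaks, and Adcy3 (an adenylate cyclase) had 2 promoter peaks.

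In receptor promoter windows, peaks were almost absent. A promoter window of 300 bases, from 250 before to 50 after the start, was available from RefSeq for 1265 receptor genes, and 1 of 1270 such windows overlapped a peak (0.0787%, exact 95% binomial interval 0.00199 to 0.438%). Among other protein-coding genes 11156 of 19993 windows did (55.8%, interval 55.11 to 56.49%). The intervals cover counting error only. These windows follow RefSeq starts, whereas distances to a start follow the deposited annotation, and the 2 can differ. The single window is therefore not the number of receptor starts with a peak nearby, as 24 receptor peaks lay within 1 kb of a deposited start. The windows also differed in base composition, with 36.2% G and C in receptor windows against 57.5% in the others, and with 0.448 against 5.42 CpG sites per 100 bases. The part of base composition in the difference was not tested.

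The single overlapping window belonged to Olfr420, an odorant receptor gene on chromosome 1, and is shown because it is the sole receptor window that overlapped a peak. It lies on the plus strand at chr1:174158472-174158771 (GRCm38.p6, the assembly of mm10). The 143 bases under the peak are in capitals.
Olfr420 promoter: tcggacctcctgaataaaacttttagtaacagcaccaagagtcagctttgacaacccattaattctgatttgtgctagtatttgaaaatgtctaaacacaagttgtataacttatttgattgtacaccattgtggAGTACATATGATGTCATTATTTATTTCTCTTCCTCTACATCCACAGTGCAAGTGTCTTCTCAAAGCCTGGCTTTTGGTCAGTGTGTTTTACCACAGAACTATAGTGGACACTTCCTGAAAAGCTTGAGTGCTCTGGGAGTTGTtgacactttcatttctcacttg
A search of both strands found 1 match to the RUNX motif TGTGGT, at base 225 counted from the 5′ end of the window. The window held no match to the EBF palindrome or to the core AGGGGGC of the CTCF motif. The letters AGATAA, bound by GATA factors, were not in it. Nor were GAGGAAGT, searched for the myeloid factor PU.1, and the AP-1 motif, searched as TGANTCA. Over all 1270 receptor windows, the RUNX letters occurred in 19.3%, against 15.0% of all promoter windows. GATA letters occurred in 26.5% against 9.65%, PU.1 in 6.69% against 3.13%, AP-1 in 15.9% against 6.99%, CTCF in 0.709% against 12.9% and EBF in 0.394% against 0.959%. Such matches describe the letters and are not binding sites.

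The Olfr420 promoter peak (chr1:174158607-174158749) was weak. It held 2.32, 1.91 and 1.67 CPM (reads scaled to the library's TMM-normalized total) in KO libraries 1, 2 and 3, against 1.15, 0.941 and 1.19 CPM in WT libraries 1, 2 and 3. All KO libraries lay above all WT libraries, but the log2 fold change of 0.84 ± 0.35 (SE) did not pass in edgeR's quasi-likelihood test (adjusted p = 0.49). A broader peak inside the same gene (chr1:174159127-174159483) held 12.2, 9.17 and 11.3 CPM in KO libraries, against 14.4, 11.03 and 14.0 CPM in WT libraries. The groups overlapped at this second peak (log2 fold change -0.27 ± 0.21, SE; adjusted p = 0.77).

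The receptor clusters as a whole were poor in peaks. A tract was defined as a run of at least 5 receptor genes or pseudogenes with no other protein-coding, antigen receptor or tRNA gene between them, which gave 84 tracts over 42.4 Mb. For the tracts alone, the Vmn1r-ps and Vmn2r-ps entries (286, nearly all pseudogenes) were counted with the receptors, and 1794 of the 2073 entries of this wider set lay in tracts. They held 150 peaks, or 3.54 per Mb, against 42.9 per Mb in the 2559 Mb outside, a 12.1-fold lower density. In 40 tracts, 16.9 Mb in all, there was no peak. The longest tract, chr2:87523466-90401674, carried 155 receptor entries and 3 peaks, and a tract of 57 entries at chr7:84810427-86695384 carried 0. The genomic repeats and near-identical copies in such clusters can lose reads to ambiguous alignment. The sources used here do not state the mapping filter, and its part in the low density was not tested.

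**Figure D1:**
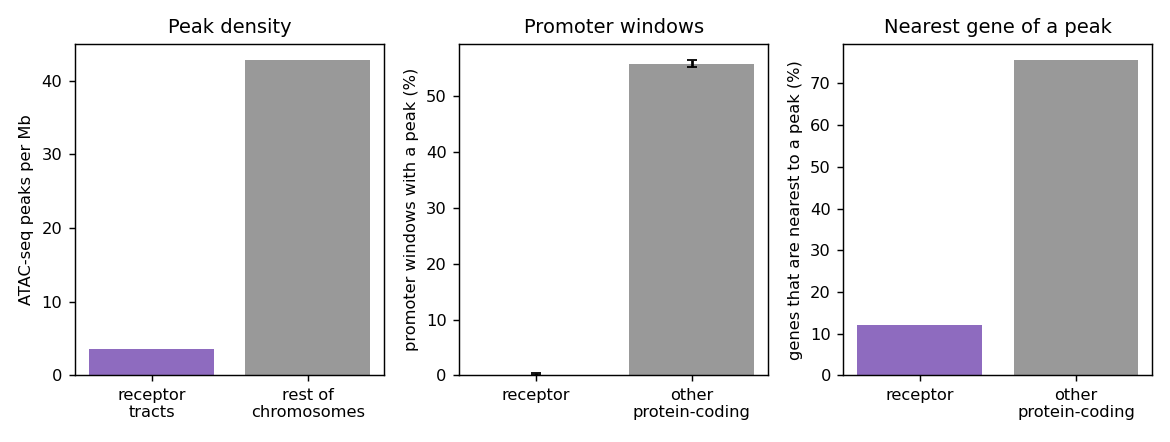
Peaks per Mb (left), percent of promoter windows that overlap a peak (middle, with exact 95% binomial intervals) and percent of protein-coding genes that are nearest to a peak (right), for receptor genes or tracts (purple) and the rest (grey). Receptor tracts held 3.54 peaks per Mb against 42.9 outside, 0.0787% of receptor windows had a peak against 55.8%, and 12.03% of receptor genes were nearest to one against 75.7%.

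Counted by gene, 176 of 1463 protein-coding receptor genes (12.03%) were the nearest gene of a peak, against 15462 of 20437 other protein-coding genes (75.7%), as the plot of density, promoters and nearest genes shows. The share was 10.01% for Olfr genes (143 of 1428, 269 peaks), 4.72% for Vmn1r genes (11 of 233, 14 peaks) and 18.3% for Vmn2r genes (23 of 126, 44 peaks), here with pseudogenes included. Other clustered families used outside blood were also sparsely marked. Trace amine receptors (Taar) had 6 of 15 genes with a peak (40.0%), beta-defensins (Defb) 13 of 42 (31.0%), bitter taste receptors (Tas2r) 8 of 35 (22.9%) and keratin-associated proteins (Krtap) 8 of 56 (14.3%), while the formyl peptide receptors of the vomeronasal organ (Fpr-rs) had 0 of 4. Most receptor genes with a peak had just 1 (104 genes), and Olfr1507 with 21 and Olfr1423 with 14 had the most.

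Where receptor peaks were present, their levels lay near those of other peaks away from starts, with a difference about as large as the spread between libraries. Their median was 15.4 CPM per kb of peak width, against 18.3 for all peaks. Among peaks more than 1 kb from a start, 303 receptor peaks had a median of 15.9 CPM per kb and 87664 others one of 16.4. On a log2 scale with a pseudocount of 0.5, the difference of medians was -0.06, -0.08 and -0.01 in KO libraries 1, 2 and 3, and -0.07, -0.16 and 0.02 in WT libraries 1, 2 and 3. Receptor peaks were thus the lower ones in 5 of 6 libraries, by -0.06 ± 0.06 on average (SD, n = 6; exact two-sided sign-flip permutation test, p = 0.0938, the smallest possible being 0.0313).

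Within 1 kb of a start the picture differed. Only 24 receptor peaks (7.34%) lay there, with a median of 12.4 CPM per kb, against 36.5 for 21868 other such peaks. The strongest by CPM were Olfr1509, Olfr229 and the inner peak of Olfr420. At Olfr229 (chr9:39910001-39910290, inside the gene) the peak held 13.7, 10.4 and 12.8 CPM in KO libraries, against 13.8, 16.9 and 9.4 CPM in WT libraries, with overlapping groups (adjusted p = 0.93). At Olfr658 (chr7:104647201-104647440), whose peak centre lay 16 bp from the start in the deposited annotation, it held 6.78, 8.91 and 9.97 CPM in KO libraries, against 10.8, 8.98 and 13.1 CPM in WT libraries. KO library 3 exceeded WT library 2 there, so these groups overlapped too (log2 fold change -0.36 ± 0.23, SE; adjusted p = 0.72). The peak also covers a Usp17le pseudogene, so it cannot be assigned to the receptor alone.

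Many receptor peaks lay in or beside other loci, and their name follows the nearest start alone. Outside the receptor tracts lay 184 of the 327 (56.3%). By the annotation under or beside them, 206 were between genes, 28 in a receptor gene, 24 in another annotated gene or pseudogene and 17 in another protein-coding gene. A further 22 lay in the T cell receptor alpha locus, 15 within 1 kb of a tRNA gene, 10 within 100 kb of a beta-globin gene and 5 in the immunoglobulin lambda locus. Each peak was put in a single class, and the antigen receptor, tRNA and globin classes were assigned before the gene classes. A peak that overlaps a receptor gene can therefore be counted elsewhere, such as that of Olfr1509 in the T cell receptor alpha locus. These classes were drawn up after the values were seen, and their differences between genotypes are descriptions with no test.

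Loss of Mel18 was not accompanied by a detectable opening or closing of receptor peaks. In edgeR's quasi-likelihood test 0 receptor peaks were called higher and 0 lower at an adjusted p under 0.05 (0% of all peaks in either direction), with a smallest adjusted p of 0.158. The limma-voom fit also called 0. DESeq2 gave an adjusted p to 5493 peaks, of which 0 were receptor peaks, so it could make no receptor call. At an unadjusted p under 0.05, 12 receptor peaks were higher (3.67%, against 3.1% of all peaks) and 5 lower (1.53%, against 5.97% of all peaks). DESeq2 gave 5 higher (against 1.91% of all peaks) and 4 lower (against 4.26%) at that level. The median log2 fold change was 0.06, against 0.02 for all peaks. The medians of all peaks in 10 level deciles, averaged with the number of receptor peaks in each as weight, gave 0.07. With a library left out the receptor median ran from 0.0135 without WT library 2 to 0.0868 without KO library 2, and was 0.0264 without KO library 3. With trended normalization, a curve fitted to each library against level, the median was 0.00, against -0.01 for all peaks, and the counts were 6 higher (against 2.34% of all peaks) and 6 lower (against 3.28%). The median standard error was 0.33 log2 units for receptor peaks and 0.31 for all peaks. Single peaks with far larger shifts were not called either, such as those near Olfr640 (1.14 ± 0.38, SE) and Olfr156 (-1.17 ± 0.36, SE). The absence of calls therefore does not exclude shifts of that size at single peaks.

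**Figure D2:**
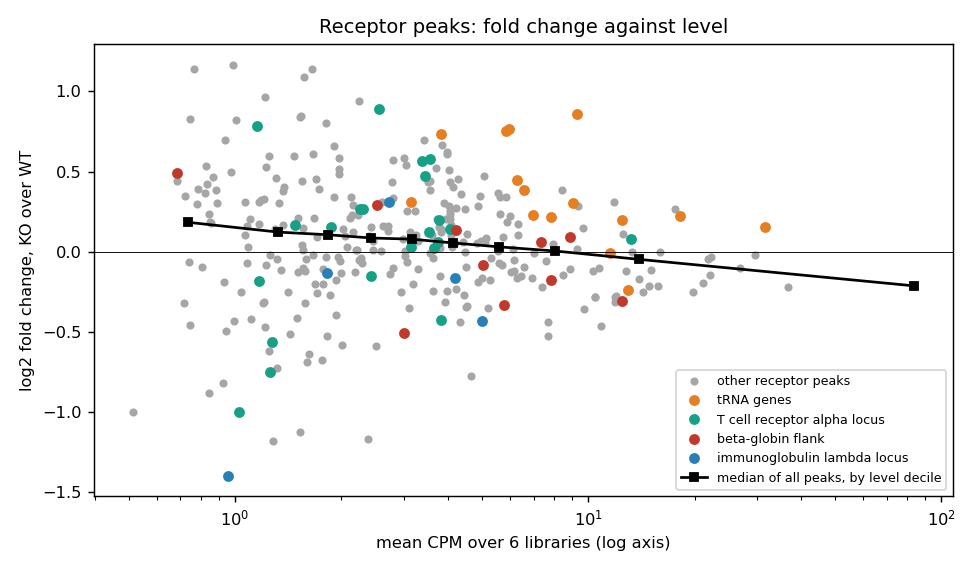
Log2 fold change of KO over WT (vertical) against mean CPM on a log axis (horizontal) for the 327 receptor peaks, coloured by neighbouring locus, with the median of all peaks in each of 10 level deciles (black squares). Values ran from -1.40 to 1.17, the black line falls as level rises, and 13 of the 15 peaks at tRNA genes lie above 0.

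By sign, 186 receptor peaks were above 0 and 141 below, as the plot of fold change against level shows. Every KO library lay above every WT library at 24 receptor peaks, an arrangement found at 7.63% of all peaks, and below at 8, found at 8.01% of all peaks. With reads summed per nearest gene, 0 of 177 receptor genes were called in edgeR (0% of 19015 genes in either direction), and 10 were higher and 3 lower before adjustment (p under 0.05), against 4.38% and 6.72% of all genes. The median log2 fold change of these summed receptor genes was 0.14, against 0.01 for all genes. That median was not set against genes of the same level here. In the authors' deposited table the smallest adjusted p of a receptor peak was 0.289.

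The receptor share of all peak reads was 0.159, 0.15 and 0.161% in KO libraries 1, 2 and 3, against 0.143, 0.138 and 0.146% in WT libraries 1, 2 and 3. Every KO library was above every WT library, by 0.0144 percentage points on average (0.157 ± 0.00595% in KO and 0.142 ± 0.00415% in WT, SD, n = 3 each). This arrangement gives p = 0.1 in an exact permutation test of both tails, the smallest possible here. The separation was lost when receptor peaks at the antigen receptor, tRNA and globin loci were left out, an exclusion made with the values known. The share was then 0.125 ± 0.00625% in KO and 0.115 ± 0.00435% in WT (SD; exact permutation test, n = 3 each, p = 0.2). There KO library 2, at 0.118%, lay below WT library 1, at 0.120%. Peaks beyond 1 kb of a start as a whole took 49.8 ± 0.285% of reads in KO and 46.1 ± 1.7% in WT. As a share of those reads alone, receptor peaks beyond 1 kb held 0.295 ± 0.00879% in KO and 0.289 ± 0.0191% in WT, and the groups overlapped (exact permutation test, n = 3 each, p = 0.7). Summed with TMM library sizes, receptor peaks reached 1501 ± 59.0 CPM in KO and 1483 ± 46.6 CPM in WT. Reads within the tracts took 0.0749 ± 0.00389% in KO and 0.071 ± 0.00243% in WT (exact permutation test, n = 3 each, p = 0.3).

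**Figure D3:**
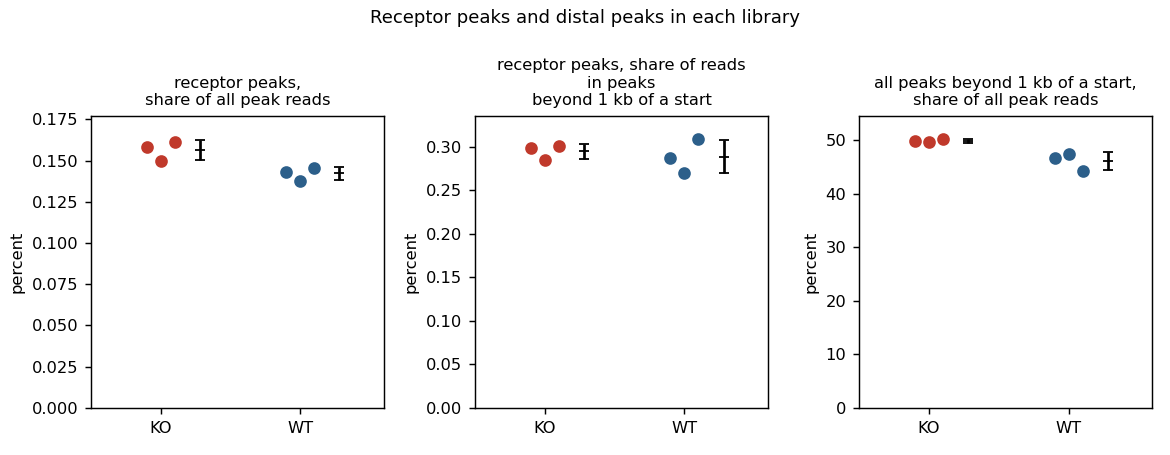
Percent of all peak reads in receptor peaks (left), percent of reads in peaks beyond 1 kb of a start that receptor peaks beyond 1 kb hold (middle) and percent of all peak reads in any peak beyond 1 kb of a start (right), with a point per library and mean and SD beside it. KO libraries lie above WT libraries on the left and right, and overlap with them in the middle.

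Receptor peaks at tRNA genes had the highest median level of the classes, 36.7 CPM per kb, and a higher summed level in KO. Transfer RNA genes are short genes read by RNA polymerase III. The 15 receptor peaks at such genes are nearest to Olfr1423 (11), Olfr750 (2) and Olfr1368 (2), and 10 of them overlap a tRNA gene. Their summed level was 169.8, 169.1 and 158.2 CPM in KO libraries 1, 2 and 3, against 125.6, 143.6 and 144.8 CPM in WT libraries 1, 2 and 3. All KO libraries were above all WT libraries. The median log2 fold change was 0.30, and it ran from 0.20 to 0.42 over the other normalizations and left-out libraries. With an unadjusted p under 0.05, 4 peaks were higher and 0 lower, against 3.1% and 5.97% of all peaks. The 11 peaks nearest to Olfr1423 lie side by side between chr19:12002222 and chr19:12013485, so they are not independent loci. The remaining 328 peaks near tRNA genes in the table had a median of 0.08, with 23 higher and 16 lower. Their summed level was 4951 ± 60.5 CPM in KO and 5140 ± 342.9 CPM in WT (SD, n = 3 each), and the groups overlapped. The 250 of them beyond 1 kb of a start had a median of 0.13, with 21 higher and 6 lower. These summed to 2829 ± 22.5 CPM in KO and 2796 ± 251.4 CPM in WT, again with overlap. Transfer RNA genes are multicopy and near-identical, and reads shared between copies cannot be told apart here.

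The strongest receptor peak per kb was one of these. It lies 6481 bp from Olfr750 over n-TPagg4, a proline tRNA gene (chr14:51064806-51065116), at 102 CPM per kb. It held 31.1, 34.4 and 34.7 CPM in KO libraries, against 32.2, 30.4 and 27.5 CPM in WT libraries, with overlapping groups (adjusted p = 0.78). Its neighbour over n-TTtgt3, a threonine tRNA gene (chr14:51065176-51065291), held 6.37, 7.85 and 7.91 CPM in KO libraries, against 3.01, 4.02 and 6.04 CPM in WT libraries. The groups did not overlap at this neighbour, where the highest WT value was that of library 3 (log2 fold change 0.75 ± 0.28, SE; edgeR adjusted p = 0.41).

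The smallest p among receptor peaks belonged to a peak 34367 bp from Olfr1423 over n-TFgaa6, a phenylalanine tRNA gene (chr19:12002222-12002524). It held 12.6, 12.5 and 10.9 CPM in KO libraries, against 5.49, 7.61 and 6.79 CPM in WT libraries. All KO libraries were above all WT libraries (log2 fold change 0.86 ± 0.22, SE; edgeR adjusted p = 0.158). The other 10 tRNA-linked peaks of this gene lay up to chr19:12013485 with log2 fold changes from -0.01 to 0.77. Summed over all 14 of its peaks, Olfr1423 held 137.8, 129.5 and 121.4 CPM in KO libraries, against 89.7, 112.5 and 97.9 CPM in WT libraries. The groups did not overlap, and the sum did not pass (log2 fold change 0.37 ± 0.10, SE; edgeR adjusted p = 0.368).

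Leaving out WT library 3 changed the calls. Without it, edgeR called 4 receptor peaks higher, where 0.29% of all peaks were called higher, and 0 lower, where 2.45% were. Of these 4, 3 lay at tRNA genes: the Olfr1423 peak over n-TFgaa6 (adjusted p = 0.0164), the Olfr750 peak over n-TTtgt3 (adjusted p = 0.0168) and an Olfr1423 peak over n-TKctt30, a lysine tRNA gene (chr19:12009601-12009782, adjusted p = 0.0425). The other was an Olfr1507 peak at the T cell receptor segment Trav13d-4 (chr14:53073156-53073439), with 4.4, 2.44 and 3.15 CPM in KO libraries against 1.06, 1.11 and 3.13 CPM in WT libraries. Only WT library 3 overlapped with KO at that peak (adjusted p = 0.0181 without it, 0.57 with it). Summed per gene, Olfr1423 (adjusted p = 0.0354) and Olfr272 (adjusted p = 0.0437) were called higher without WT library 3, where 0.747% of all genes were called higher, and 0 were called lower, where 3.1% were. When trended normalization was added as well, 0 peaks and 1 gene, Olfr1423, were called, against 0.0401% of all peaks and 0.342% of all genes called higher. On the lower side 0 receptor peaks and 0 receptor genes were called there, against 0.0664% of all peaks and 0.337% of all genes. Over the 14 fits run on peaks that gave these 4 an adjusted p, it ran from 0.0164 to 0.916, and each peak passed in 1 fit. Over 11 fits of summed genes, the adjusted p ran from 0.0294 to 0.808 for Olfr1423 and from 0.0437 to 0.808 for Olfr272.

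**Figure D4:**
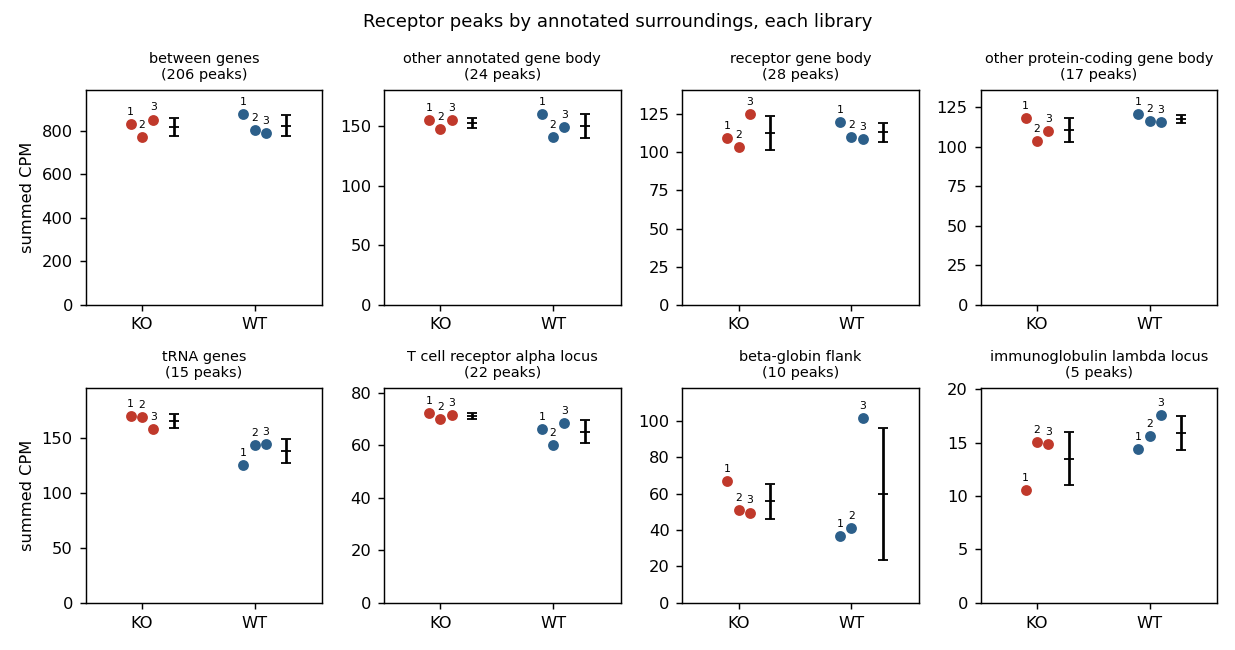
Summed CPM of receptor peaks by annotated surroundings in each library (points, numbered as in the table; KO red, WT blue), with mean and SD beside them. All KO libraries lie above all WT libraries for tRNA genes and, narrowly, for the T cell receptor alpha locus, an order found at 7.63% of all single peaks. WT library 3 stands out at 101.5 CPM in the beta-globin flank.

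Olfactory receptor genes also flank the beta-globin locus, whose genes encode the beta chains of haemoglobin. The 10 receptor peaks within 100 kb of a globin gene summed to 66.9, 50.9 and 49.7 CPM in KO libraries 1, 2 and 3, against 36.6, 41.1 and 101.5 CPM in WT libraries 1, 2 and 3. WT library 3 was the highest of all and the other WT libraries were the lowest. The median log2 fold change was -0.01, and 0.62 without WT library 3, with 5 of the 10 then higher at an unadjusted p under 0.05 (against 5.68% of all peaks in that fit), 0 lower (against 8.44%) and 0 called. With each other library left out in turn it ran from -0.35 without WT library 1 to 0.08 without KO library 2. Peaks nearest to globin genes had their highest values in the same 2 libraries, WT 3 and then KO 1, with 134.4, 94.5 and 82.4 CPM in KO libraries against 69.0, 102.2 and 206.8 CPM in WT libraries. The summed level of the 4 erythroid marker genes ran from 141.3 to 183.3 CPM in KO and from 131.0 to 226.1 CPM in WT, again with the maximum in WT library 3. A different number of erythroid cells and a different accessibility per cell cannot be told apart in bulk samples, and the part of either was not tested. At Olfr66 (chr7:103870644-103871011) alone, KO libraries held 13.6, 11.7 and 8.1 CPM, against 5.49, 8.81 and 26.8 CPM in WT libraries, with WT library 3 highest and WT library 1 lowest (adjusted p = 0.91).

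The T cell receptor alpha locus, which joins V and J segments in T cells, borders Olfr1507 and Olfr1509. Its 22 peaks summed to 72.1, 69.9 and 71.6 CPM in KO libraries, against 66.3, 60.1 and 68.6 CPM in WT libraries. The sums did not overlap between groups, with 69.9 CPM as the lowest KO value and 68.6 CPM as the highest WT value. Such an order, KO above WT in every library, was found at 7.63% of all single peaks. Of the 22 peaks 0 passed, and the median log2 fold change was 0.13 (0.05 with trended normalization). Without WT library 3 the median was 0.20. With an unadjusted p under 0.05, 3 peaks were then higher and 1 lower, against 5.68% and 8.44% of all peaks in that fit. There 1 peak was called higher, the Olfr1507 peak given above, against 0.29% of all peaks. None was called lower, against 2.45% of all peaks. With another library left out the median ran from 0.05 without WT library 1 to 0.13 without KO library 1. It was 0.07 without WT library 2 and 0.06 without KO library 3. T cell markers, 4 genes with 8 peaks, ran from 42.1 to 49.5 CPM in KO and from 47.2 to 61.9 CPM in WT. The Olfr1507 peaks lay from 70116 to 868474 bp from its start, and 1 of them was among the lower peaks of smallest p. The 5 peaks of the immunoglobulin lambda locus, nearest to Olfr164, summed to 10.6, 15.0 and 14.9 CPM in KO libraries, against 14.4, 15.6 and 17.6 CPM in WT libraries, with overlap. B cell markers ran from 27.2 to 33.0 CPM in KO and from 34.1 to 44.7 CPM in WT. The part of cell composition in these sums was not tested.

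The 206 peaks between genes overlapped no annotated gene, although some lay close to genes of other kinds, such as 1 at 398 bp from Tespa1. They summed to 832.3, 772.9 and 851.6 CPM in KO libraries, against 878.0, 803.4 and 788.9 CPM in WT libraries. The groups overlapped, and the median log2 fold change was 0.03 (-0.02 with trended normalization). The strongest of them per kb, 3813 bp from Olfr1044 (chr2:86175436-86175820), held 31.5, 19.5 and 27.0 CPM in KO libraries, against 32.1, 31.3 and 20.6 CPM in WT libraries. It lay 656501 bp from the nearest other protein-coding gene, and its groups overlapped (log2 fold change -0.10 ± 0.21, SE; adjusted p = 0.93). The following one was a peak 5833 bp from Olfr94 on chromosome 17, at 65.9 CPM per kb, with 15.2, 12.6 and 13.5 CPM in KO libraries against 20.1, 11.5 and 16.5 CPM in WT libraries. Those groups overlapped as well.

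Away from tRNA genes, the receptor peaks with the smallest p-values were weak. A peak 3158 bp from Olfr640 (chr7:104019092-104019223) held 2.26, 1.65 and 2.89 CPM in KO libraries, against 1.33, 1.03 and 0.746 CPM in WT libraries. All KO libraries were higher (log2 fold change 1.14 ± 0.38, SE; edgeR adjusted p = 0.338). Peaks near Olfr412 and Vmn2r31 also separated the groups, with log2 fold changes of 0.81 and 1.17 (adjusted p = 0.47 and 0.48). On the lower side, a peak 1654 bp from Olfr156 (chr4:43822963-43823211) held 1.39, 1.98 and 1.03 CPM in KO libraries, against 3.37, 2.31 and 4.18 CPM in WT libraries. All KO libraries were lower (log2 fold change -1.17 ± 0.36, SE; edgeR adjusted p = 0.275). Peaks near Olfr164, Olfr464, Olfr530 and Olfr1507 had log2 fold changes between -1.40 and -0.999 (adjusted p = 0.43 to 0.49). Of these, Olfr464 and Olfr530 overlapped between groups with WT library 2 within the KO range.

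**Figure D5:**
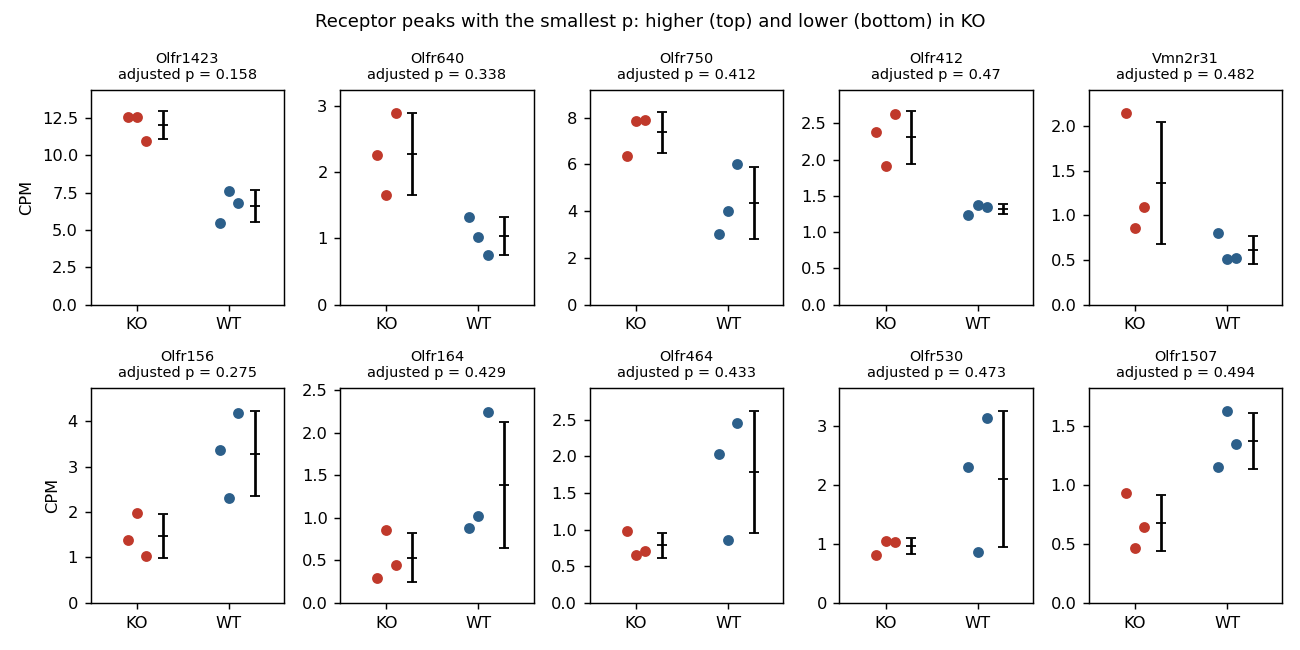
CPM in each library (points) with mean and SD beside them for the 5 receptor peaks of smallest p on the higher side (top) and on the lower side (bottom), KO left and WT right, with the adjusted p of edgeR's quasi-likelihood test. None passes 0.05. The groups do not overlap in 8 of the 10 panels, which follows largely from choosing these peaks by a small p.

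Genes that serve receptor choice and signalling were examined beside their receptors. Of 13 odorant and pheromone signalling genes 12 were nearest to a peak, with 49 peaks and 0 called. On an unadjusted p under 0.05, 0 were higher and 1 was lower, with a median log2 fold change of -0.13. All 14 receptor chaperones and choice factors had peaks (67), with 4 higher, 5 lower and a median of -0.05. The smallest adjusted p there was 0.0606, at Eif2ak3, the kinase PERK of the unfolded protein response, which neurons use to settle receptor choice. All 14 heterochromatin factor genes had peaks (82), with 2 higher (2.44%), 11 lower (13.4%) and a median of -0.08. Over all peaks, 3.1% were higher and 5.97% lower at that level. With trended normalization the medians of these lists were -0.13, -0.08 and -0.04. Among the other silent families, Tas2r had 25 peaks with 2 higher, 0 lower and a median of 0.36 (0.26 with trended normalization), and Defb 25 peaks with 4 higher, 1 lower and a median of 0.28 (0.17). Taar had 8 peaks and Krtap 13, with 0 higher and 0 lower in each and medians of -0.02 and -0.04 (-0.12 and -0.07 with trended normalization). None of these 4 families had a called peak.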

How the data were processed

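The members, gene lists and classes were chosen with earlier results of these data known. The submitters' processing notes name mm10, Trimmomatic, Bowtie2, Picard and MACS2. The counting tool, Tn5 shift, duplicate removal and multimapping filter are not stated there, and each can change values in repeated receptor genes. Raw read counts per peak and nearest starts were deposited by the authors. The authors' log2 fold changes and p-values were used only where the deposited table is named; 12 other columns of per-library values were not used. The table numbers libraries within genotype, so none was tied to a mouse. Mice are biological replicates. edgeR 4.0.16 (R 4.3.3; TMM, robust quasi-likelihood, filterByExpr, which removed no receptor peak) was fitted to all peaks, with Benjamini-Hochberg adjustment and a threshold of 0.05; adjusted p-values without another name come from it. It was also run on simulated data without the filter, and no result here rests on that run. Alternatives used DESeq2 1.42.0, limma 3.58.1, other scalings, filters and left-out libraries. Named peaks were the 10 highest per kb, the 5 smallest p each way and the 10 strongest within 1 kb; others were chosen after their values were seen. All 177 symbols matched the gene table, which also gave gene positions and promoter sequences (RefSeq, GRCm38.p6).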

Additional observations from a re-analysis of the deposited data

How the results depend on the processing

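No receptor peak was called in the other fits with all 6 libraries, among which DESeq2 gave none an adjusted p. At an unadjusted p under 0.05, receptor peaks higher in KO numbered 5 with DESeq2 (against 1.91% of all peaks) and 6 with trended normalization (against 2.34%). They numbered 23 with library size alone, which also raised the median of all peaks. With a library left out they numbered 8 to 25, with 25 without WT library 3, where 5.68% of all peaks were higher. Receptor peaks lower in KO numbered 1 with at least 20 reads in 3 libraries and 3 within 100 kb of a start. They numbered 3 without the antigen receptor, tRNA and globin loci, and 11 with trended normalization without WT library 3. With a library left out they numbered 3 to 10, with 10 without WT library 3, where 8.44% of all peaks were lower. The share over all peaks was not worked out for the remaining settings. The setting without those loci and the one with trended normalization without WT library 3 were chosen after seeing the data. The median log2 fold change was 0.18 with library size alone, which moved that of all peaks to 0.14, 0.0042 with trended normalization, and 0.0135 to 0.0868 with a library left out. Calls higher ranged from 0 to 4 peaks and from 0 to 2 summed genes with a library left out, the maxima without WT library 3, and 1 gene was called with trended normalization added. The cause of these shifts was not tested. The share of reads and the level against other distal peaks kept their direction in each alternative run. No paired analysis was possible because the labels number the mice across both genotypes and the table's columns number them within a genotype. With 31 to 53 reads at the median receptor peak, counting error adds to the spread between mice at single peaks.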
